A study of Mus musculus with 14 samples.

Results

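The data are bulk RNA-seq of 14 subcutaneous CT26 tumors, and the subject is 10 genes of neutrophils and of the signals that draw them. The CT26 line comes from a colon carcinoma that arose in the Balb/c strain. The genes were chosen by name: S100a8, S100a9, Retnlg, Cxcr2, Csf3r, Camp, Ngp, Cxcl1, Cxcl2, and Cxcl5. All 10 were among the 53801 genes in the files, and 8 of them were among the 16287 genes with counts high enough to be tested. Camp and Ngp were not. Barcoded CT26 cells, 250000 per site, were placed in both flanks of female Balb/c mice aged 6 to 8 weeks, which keep their own immune system, so the host can supply every blood-derived cell of the tumor. From day 7 the mice received 200 µg of antibody every 3 days for 5 injections, either control IgG (clone 2A3) or anti-PD-1 (clone 1A12), and tumors were taken 3 days after the last injection. The study classed the tumors of anti-PD-1-treated mice as responders or non-responders by their final size against controls, so response was not assigned by the experimenter. There were 5 control IgG tumors from 4 mice, 5 responder tumors from 4 mice, and 4 non-responder tumors from 3 mice. A tumor is named here by its mouse number and by L or R for the left or right flank. Mice 14 (control IgG), 30 (responder), and 33 (non-responder) each gave both tumors, so the p-values treat as separate some tumors that shared a host. The expected counts summed to between 33237744 and 48481461 per tumor, with a median of 41352160. On these totals 3 counts, taken as the floor of detection, were between 0.0619 and 0.0903 CPM (reads of a gene per fixed total of reads). The CPM values below use rescaled totals, on which 3 counts were 0.0950 CPM in a non-responder.

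Neutrophils are short-lived phagocytes that are made in the bone marrow and carry antimicrobial proteins in granules. Early precursors make the proteins of the primary granules, later precursors make those of the specific granules, and mature cells in blood and tissue keep little of either mRNA. Granulocyte colony-stimulating factor acts through its receptor Csf3r to drive their production, and CXC chemokines made by tumor, stromal, and myeloid cells draw them into tissue through the receptor Cxcr2. In tumors they can hold back T cells or kill cancer cells, depending on the setting. Several of these genes are also used by other cells: monocytes and macrophages make Csf3r and S100a8/S100a9, and stressed keratinocytes make S100a8/S100a9.

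The label of the gene group was first checked against the genes that define the cell. Ly6g, the surface protein by which mouse neutrophils are usually gated, had at most 5 counts in any tumor and 3 or fewer in 11 of 14. Elane, a protease of primary granules, and Ms4a3, a gene of early granulocyte precursors, never passed 3 counts, and Mpo, the peroxidase of primary granules, reached at most 16. Itgb2l, an integrin of specific granule stage cells, was at 0 in all 14 tumors. Ltf, lactoferrin, had between 12 and 263 counts. Elane, Ms4a3, Mpo, and Itgb2l belong to precursors, whose mRNA mature cells keep little of, so their low counts cannot check for mature neutrophils. Of the genes of mature cells, Ly6g was at or near the floor. Retnlg and Cxcr2 were above it in every tumor, at 13 to 89 and 29 to 109 counts. These genes did not settle the label, and the values below are levels of transcripts, not numbers of cells. In bulk RNA, fewer cells of a type and less RNA per cell cannot be told apart.

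Of the 8 tested genes, 1 differed between responders and non-responders and the same 1 between responders and control IgG tumors: Csf3r, which was higher in responders in both comparisons. Over all tested genes, 9.90% passed the same threshold (edgeR quasi-likelihood test, Benjamini-Hochberg adjusted p under 0.05 over all 16287 genes) between responders and non-responders, 5.08% higher in responders and 4.82% lower. Between responders and control IgG tumors 13.2% passed, 7.88% higher and 5.30% lower. The count of members is near these shares. Csf3r was also the 1 member whose values did not overlap between responders and either other group, against 12.8% of all tested genes with no overlap for non-responders and 15.1% for control IgG. Between non-responders and control IgG tumors none of the 8 passed, with 0 at an unadjusted p under 0.05, where 0% of all genes passed, 758 of them had an unadjusted p under 0.05, and 1.25% did not overlap. DESeq2 and limma-voom also called none of the 8 there, and DESeq2 gave 1 an unadjusted p under 0.05.

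**Figure D1:**
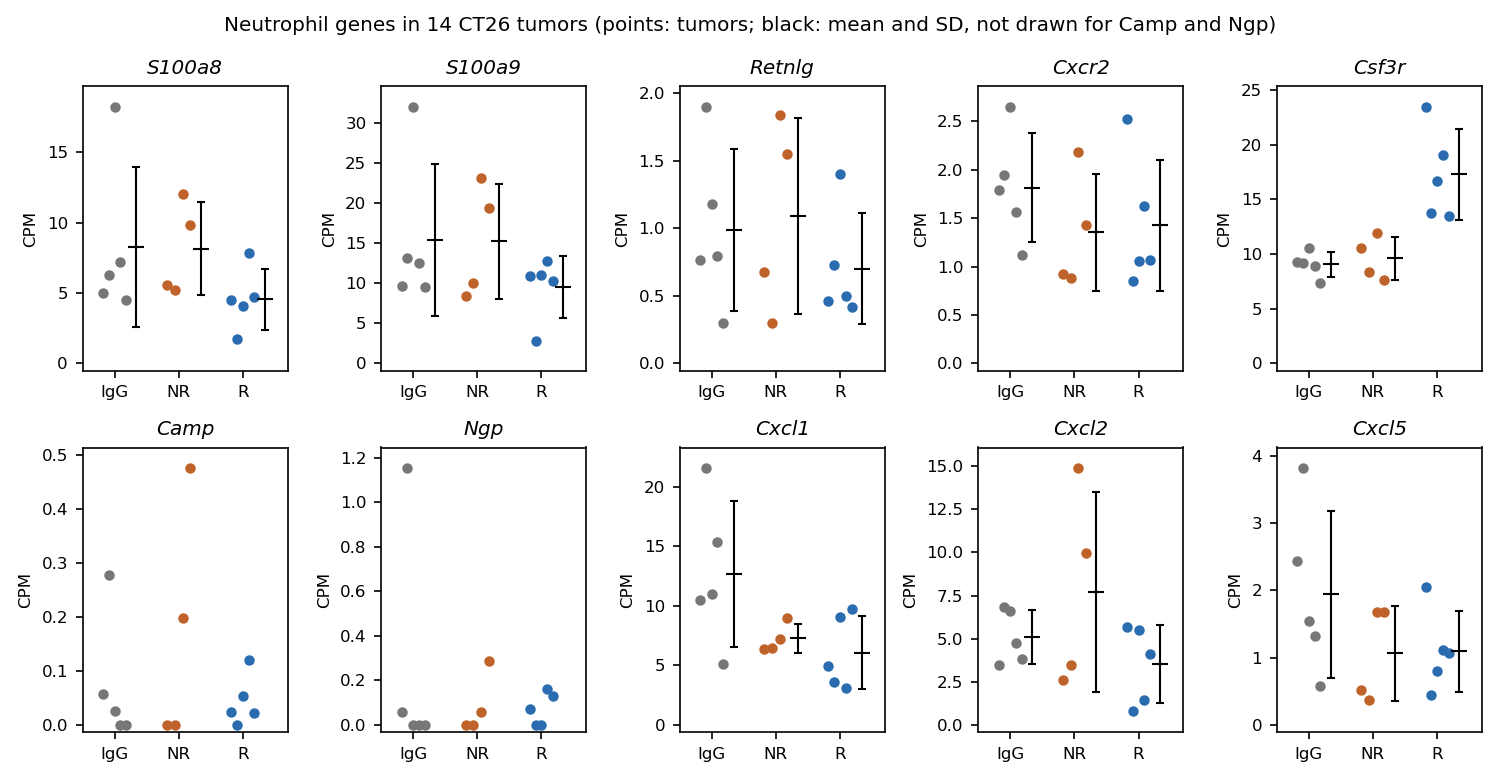
Each panel plots 1 gene, with the level in CPM on the vertical axis and the 3 groups (IgG, control IgG; NR, non-responder; R, responder) on the horizontal axis. Points are tumors and black bars are means with SD, left out for Camp and Ngp. Only the Csf3r panel shows the responders, between 13.5 and 23.5 CPM, wholly above both other groups.

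S100a8 and S100a9 are the 2 subunits of calprotectin, a calcium- and zinc-binding protein that fills the cytosol of neutrophils and is released in inflammation. They lie beside each other on mouse chromosome 3 on opposite strands of mm10, S100a8 (ENSMUSG00000056054) at 90668978-90670035 on the + strand and S100a9 (ENSMUSG00000056071) at 90692632-90695721 on the − strand. Because their levels moved together from tumor to tumor, the sequence before the start of each is shown. Both are from RefSeq on GRCm38.p6, 5′ to 3′ on the gene's own strand, up to 250 bases before the RefSeq start and ended before the first annotated transcript. Capitals mark matches to TTNNGNAA, a pattern like that bound by C/EBP factors, on either strand.
S100a8, chr3:90668821-90668977, + strand: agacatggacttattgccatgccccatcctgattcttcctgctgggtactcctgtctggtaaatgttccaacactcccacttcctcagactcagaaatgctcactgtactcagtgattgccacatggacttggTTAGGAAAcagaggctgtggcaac
S100a9, chr3:90695722-90695971, − strand: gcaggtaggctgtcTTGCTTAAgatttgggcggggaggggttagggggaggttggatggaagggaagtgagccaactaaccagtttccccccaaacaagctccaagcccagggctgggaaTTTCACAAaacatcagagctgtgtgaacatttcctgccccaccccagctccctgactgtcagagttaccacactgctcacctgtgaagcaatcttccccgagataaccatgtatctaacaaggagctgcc

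Matches to this pattern began at −117 in S100a8 and at −236 and −130 in S100a9, counted back from the RefSeq start. Of the 9 members with a window in the RefSeq table, 5 held the pattern (S100a8, S100a9, Retnlg, Ngp, and Cxcl2), and 40.7% of all 32851 windows of 300 bases held it. TATAAA was found in 2 of the 9, S100a8 and S100a9, and in 13.6% of all windows, both matches outside the stretches printed.

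On the length-scaled measure S100a9 was the most abundant member in every tumor. In control IgG tumors 14L, 14R, 16R, 17R, and 20R its level was 9.66, 13.1, 32.0, 12.5, and 9.55 CPM. In non-responders 29L, 32R, 33L, and 33R it was 8.45, 9.96, 23.2, and 19.4 CPM, and in responders 24L, 26R, 30L, 30R, and 35L it was 10.9, 2.71, 11.0, 12.8, and 10.2 CPM. The groups overlapped, with 4 responders inside the range of both other groups and tumor 26R below every other tumor. The differences were not called: the log2 fold change was −0.67 (SE 0.44, 95% interval −1.62 to 0.28) between responders and non-responders and −0.69 (SE 0.42, −1.59 to 0.21) between responders and control IgG tumors (edgeR adjusted p = 0.341 and 0.313).

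S100a8 gave the same order of group means. It was 4.97, 6.28, 18.3, 7.23, and 4.48 CPM in the control IgG tumors, 5.53, 5.21, 12.0, and 9.85 CPM in the non-responders, and 4.49, 1.75, 4.07, 7.83, and 4.69 CPM in the responders, in the order of tumors above. In 4 of 5 responders it lay below every non-responder, and the exception was 30R. The means were 8.24 ± 5.70 (SD, n = 5), 8.15 ± 3.33 (n = 4), and 4.56 ± 2.17 CPM (n = 5), and the log2 fold change was −0.83 (SE 0.45, −1.78 to 0.12) against non-responders and −0.85 (SE 0.42, −1.75 to 0.06) against control IgG (edgeR adjusted p = 0.243 and 0.211). These intervals hold no difference as well as a responder level well below that of the other groups. Against non-responders the values of both genes leaned on mouse 33. Without its 2 tumors the log2 fold change was −0.21 for S100a8 and 0.07 for S100a9.

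High calprotectin levels came from few tumors. Control IgG tumor 16R held the highest value of both genes and also the highest sum of the erythroid and platelet markers, 4559 TPM (a level scaled to gene length and to a fixed total), against 291.6 to 1569 in the other control IgG tumors. Its epidermal marker sum was 519.6 TPM, within the control range of 5.90 to 670.5. The blood list was lower in responders, with 4 of 6 tested markers called lower than in non-responders and 3 of 6 lower than in control IgG tumors, and its sum was 235.5 to 776.8 TPM in responders, 981.3 to 4414 in non-responders, and 291.6 to 4559 in control IgG tumors. Non-responder 32R had a sum of 4414 TPM with 5.21 CPM of S100a8 and 9.96 CPM of S100a9. Non-responder 33L, next after 16R in both genes, had a sum of 981.3 TPM. No epidermal marker of 10 was called in any comparison, which does not bear on single tumors. Responder 30R, the highest responder in both genes, had the highest epidermal sum of all tumors, 942.2 TPM. The other responders had 10.4 to 273.4 TPM. Control IgG tumor 14L had 670.5 TPM with 4.97 CPM of S100a8. The part of blood or of epidermis in the S100a8 and S100a9 values was not tested.

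The ratio of the subunits varied less than their level. The TPM of S100a8 divided by that of S100a9 was 0.587 ± 0.0569 in control IgG tumors (n = 5), 0.623 ± 0.0767 in non-responders (n = 4), and 0.561 ± 0.138 in responders (n = 5). Two-sided exact permutation tests gave p = 0.444 for responders against non-responders, 0.706 against control IgG, and 0.524 for non-responders against control IgG (0.629, 0.706, and 0.629 adjusted over the 6 ratio tests made here). Responder values spread more widely, between 0.417 in 30L and 0.724 in 26R.

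Retnlg (ENSMUSG00000022651, chromosome 16, 48872621-48874496, + strand), a resistin-like secreted protein of mature neutrophils, was near 1 CPM. It ranged from 0.297 to 1.90 CPM in control IgG tumors, from 0.301 to 1.84 in non-responders, and from 0.414 to 1.40 in responders, on 13 to 89 counts per tumor. The groups overlapped almost wholly. The log2 fold change of −0.64 (SE 0.56, −1.83 to 0.56) between responders and non-responders became 0.53 without mouse 33, and against control IgG it was −0.51 (SE 0.53, −1.64 to 0.62), with edgeR adjusted p = 0.486 and 0.579 over all 14 tumors.

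Csf3r (ENSMUSG00000028859, chromosome 4, 126024550-126044440, + strand) encodes the receptor of granulocyte colony-stimulating factor. It was 9.23, 9.20, 10.5, 8.92, and 7.31 CPM in control IgG tumors 14L, 14R, 16R, 17R, and 20R. Non-responders 29L, 32R, 33L, and 33R had 10.5, 8.34, 12.0, and 7.60 CPM, and responders 24L, 26R, 30L, 30R, and 35L had 23.5, 13.7, 16.7, 19.1, and 13.5 CPM. Every responder lay above every other tumor, and the gap between the lowest responder (35L) and the highest other tumor (33L) was smaller than the spread within responders. Csf3r rose 1.80-fold in responders against non-responders (95% interval 1.38 to 2.35, log2 fold change 0.85, SE 0.18, edgeR adjusted p = 0.0139) and 1.91-fold against control IgG tumors (1.49 to 2.45, log2 fold change 0.94, SE 0.17, edgeR adjusted p = 0.00305). Ordered by p-value it stood at place 335 and 304 of the 16287 genes.

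Non-responders and control IgG tumors differed in Csf3r by less than their spread, at 9.60 ± 2.0 (n = 4) and 9.04 ± 1.15 CPM (n = 5), with a log2 fold change of 0.09 (SE 0.18, −0.29 to 0.47, edgeR adjusted p = 0.946). The difference from control IgG tumors was called in every alternative run, with adjusted p up to 0.0242. The difference from non-responders was called with any single tumor left out (adjusted p up to 0.0476), but not without both tumors of mouse 30 (log2 fold change 0.82, adjusted p = 0.0723) or of mouse 33 (0.89, adjusted p = 0.0735), where the number of genes called over the whole table was 197 and 59 in place of 1612. On the length-scaled measure the responders were also apart, with 6.34 to 11.1 TPM against 2.27 to 5.03 in non-responders and 3.14 to 4.56 in control IgG tumors.

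Markers of several other cell types also differed in the responders. The 8 monocyte and macrophage markers summed to 1509 to 1963 TPM in responders, 1070 to 1284 in non-responders, and 1153 to 1349 in control IgG tumors, with no overlap. Of the 8, all tested, 2 rose in both comparisons: Ly6c2, a surface protein of inflammatory monocytes (log2 fold change 1.43 and 1.69, edgeR adjusted p = 0.0302 and 0.00665), and Adgre1, the macrophage protein F4/80 (0.51 and 0.35). The 4 T cell markers summed to 16.8 to 30.1 TPM in responders, 6.18 to 10.5 in non-responders, and 8.18 to 16.6 in control IgG tumors, and 3 and 4 of the 4 rose. The 4 endothelial markers summed to 66.7 to 89.8 TPM in responders, 32.1 to 66.5 in non-responders, and 37.8 to 62.6 in control IgG tumors, and none of the 4 was called. Of the 5 fibroblast markers, whose sums overlapped (579.6 to 923.9 TPM in responders, 365.1 to 795.0 in non-responders, and 500.9 to 705.4 in control IgG tumors), the collagen gene Col1a2 rose in both comparisons (0.47 and 0.48), and against control IgG Col1a1 rose (1.06) and Dcn, decorin, fell (−0.88). The endothelial sums nearly met, at 66.73 TPM in responder 26R and 66.54 in non-responder 33L. On log2(TPM + 1) the median gene was also higher in responders, by 0.17 against non-responders and 0.09 against control IgG. The TPM sums share that shift. The part of these cell types in the Csf3r difference was not tested. Eosinophil markers summed to at most 1.83 TPM in any tumor.

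**Figure D2:**
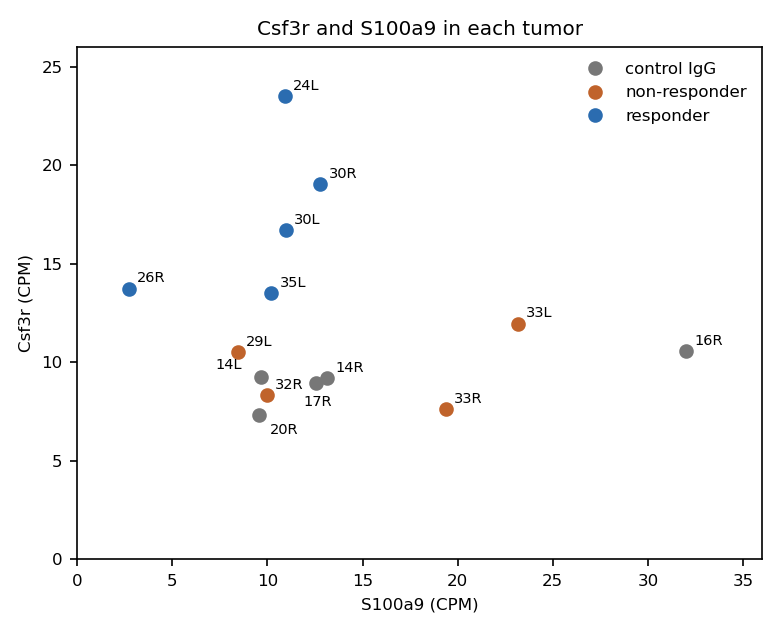
The horizontal axis is S100a9 and the vertical axis Csf3r, both in CPM, with 1 labelled point per tumor colored by group. The 5 responders lie above the others on the Csf3r axis, while the highest S100a9 values (32.0 CPM in 16R and 23.2 in 33L) belong to tumors outside the responders.

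Csf3r was set against the calprotectin genes and Cxcr2 within each tumor. The TPM of S100a9 divided by that of Csf3r was 2.20 to 8.36 in responders, 9.10 to 32.0 in non-responders, and 11.0 to 34.5 in control IgG tumors. The TPM of Csf3r divided by that of Cxcr2 was 9.17 to 16.4, 4.93 to 11.3, and 3.77 to 5.82, so here the responders overlapped the non-responders. Both ratios were chosen after their values were seen and were not tested. The first sets a short transcript against a long one (513.2 bases for S100a9 and 2980 for Csf3r). Genes of 500 bases deviated from the trend of all tumors by −0.189 to −0.046 on the log2 scale in responders. The deviation was −0.019 to 0.49 in non-responders, highest in 33R, and −0.053 to 0.124 in control IgG tumors. The part of this length trend in the gap between 8.36 and 9.10 was not tested.

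Cxcr2 (ENSMUSG00000026180, chromosome 1, 74153989-74161246, + strand), the chemokine receptor through which neutrophils enter tissue, was not called in any comparison. It was 1.79, 1.94, 2.65, 1.57, and 1.12 CPM in control IgG tumors, 0.922, 0.880, 2.18, and 1.43 CPM in non-responders, and 2.52, 0.845, 1.06, 1.63, and 1.07 CPM in responders, on 29 to 109 counts. The groups overlapped, and the highest responder, 24L, was also the responder with the most Csf3r. The log2 fold change was 0.08 (SE 0.36, −0.69 to 0.86) against non-responders and −0.34 (SE 0.34, −1.06 to 0.38) against control IgG (edgeR adjusted p = 0.909 and 0.552). Without mouse 33 the value against non-responders was 0.68, and that of non-responders against control IgG moved from −0.43 to −1.02, neither of them called. A difference between the Cxcr2 and Csf3r fold changes was not tested.

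Camp and Ngp are stored in specific granules and their mRNA belongs to bone marrow precursors. Camp (ENSMUSG00000038357, chromosome 9, 109847379-109849617, − strand), the cathelicidin peptide, had 2, 13, 1, 0, and 0 counts in control IgG tumors 14L, 14R, 16R, 17R, and 20R, 0, 0, 7, and 15 in non-responders 29L, 32R, 33L, and 33R, and 1, 0, 2, 6, and 1 in responders 24L, 26R, 30L, 30R, and 35L. Ngp (ENSMUSG00000032484, chromosome 9, 110419747-110423012, + strand), neutrophilic granule protein, had 2, 54, 0, 0, and 0, then 0, 0, 2, and 9, then 3, 0, 0, 8, and 6 counts. Each was at 3 counts or fewer in 10 of 14 tumors. Tumor 14R held the highest Ngp value, 1.15 CPM, and 33R the highest Camp value, 0.475 CPM. Tumors 14R, 33R, and 30R, 1 from each group, were among the 4 with the most counts of each gene. Neither was detectable in most tumors at this depth, and with no filter on low counts edgeR gave adjusted p between 0.469 and 0.866 for Camp and between 0.510 and 1 for Ngp.

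Cxcl1, Cxcl2, and Cxcl5 are secreted ligands of Cxcr2. All 3 lie on chromosome 5 on the + strand, Cxcl5 (ENSMUSG00000029371) at 90759360-90761624, Cxcl1 (ENSMUSG00000029380) at 90891241-90893115, and Cxcl2 (ENSMUSG00000058427) at 90903871-90905938, in a cluster that also holds Cxcl3. Inflammatory signals switch them on through NF-κB. The sequences before Cxcl1, Cxcl2, and Cxcl3 are shown because these genes can be compared for a shared stretch. They are from RefSeq on GRCm38.p6 and were chosen and ended as above. Capitals mark matches to GGNNTTTCC, a pattern like that bound by NF-κB, to TTNNGNAA, or to TATAAA, on either strand.
Cxcl1, chr5:90890995-90891240, + strand: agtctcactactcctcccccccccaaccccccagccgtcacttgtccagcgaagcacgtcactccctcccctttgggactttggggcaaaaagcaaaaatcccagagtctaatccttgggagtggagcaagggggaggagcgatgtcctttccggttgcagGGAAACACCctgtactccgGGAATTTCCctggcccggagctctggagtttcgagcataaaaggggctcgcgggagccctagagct
Cxcl2, chr5:90903649-90903870, + strand: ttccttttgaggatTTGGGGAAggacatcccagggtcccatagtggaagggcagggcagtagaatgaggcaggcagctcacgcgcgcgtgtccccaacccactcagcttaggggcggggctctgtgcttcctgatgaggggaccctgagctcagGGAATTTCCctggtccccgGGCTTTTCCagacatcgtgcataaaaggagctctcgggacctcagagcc
Cxcl3, chr5:90785851-90786100, + strand: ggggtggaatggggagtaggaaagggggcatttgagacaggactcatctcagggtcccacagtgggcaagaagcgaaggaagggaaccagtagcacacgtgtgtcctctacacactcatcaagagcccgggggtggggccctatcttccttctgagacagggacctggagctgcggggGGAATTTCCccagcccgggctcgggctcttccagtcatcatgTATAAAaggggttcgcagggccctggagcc

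GGNNTTTCC was matched in Cxcl1 at −89 (on the reverse strand, as GGAAACACC) and at −70, in Cxcl2 at −96 and −77, and in Cxcl3 at −72. Of the 9 members with a window, these 2 held it, against 5.82% of all 32851 windows. The longest run of bases shared by the Cxcl1 and Cxcl2 windows was GGGAATTTCCCTGG, 14 bases, and GGGAATTTCCC, 11 bases, was the longest run that either shared with Cxcl3. The matches did not overlap any other pattern searched. The windows of Cxcr2, Csf3r, and Camp held none of the 3 patterns, which says only that these letters are not there. Cxcl5 was not in the RefSeq window table.

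Cxcl1 was lower in both anti-PD-1 groups than in most control IgG tumors, but the difference was not called. Its level was 10.5, 21.6, 11.0, 15.3, and 5.12 CPM in control IgG tumors, 6.35, 6.49, 7.20, and 8.997 CPM in non-responders, and 4.95, 3.56, 9.01, 3.12, and 9.68 CPM in responders. All 9 anti-PD-1 tumors lay below 4 of the 5 control IgG tumors, and the control tumor 20R lay among them. Against control IgG the responder level was 0.478 of the control level (95% interval 0.278 to 0.820, log2 fold change −1.07, SE 0.36), with an unadjusted p of 0.0108 and an adjusted p of 0.0675 in edgeR. DESeq2 (adjusted p = 0.0194) and limma-voom with mouse as a random effect (0.0359) called it, as did edgeR without 20R (0.0344) or without 35L (0.0408), and without mouse 14 the adjusted p was 0.239. For non-responders against control IgG the log2 fold change was −0.81 (SE 0.39, −1.64 to 0.02, unadjusted p = 0.0559, adjusted p = 0.932 in edgeR), and between responders and non-responders it was −0.26 (SE 0.39, −1.08 to 0.57, adjusted p = 0.705).

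Cxcl2 varied widely within groups. It was 3.47, 6.81, 6.62, 4.73, and 3.79 CPM in control IgG tumors, 2.59, 3.45, 14.9, and 9.95 CPM in non-responders, and 5.69, 0.816, 5.52, 1.43, and 4.12 CPM in responders. Both tumors of mouse 33 stood above all others, and responders 26R and 30R stood below all others. The log2 fold change between responders and non-responders was −1.13 (SE 0.56, −2.33 to 0.06, edgeR adjusted p = 0.205) and became 0.23 without mouse 33. Against control IgG it was −0.53 (SE 0.53, −1.67 to 0.60) for responders and 0.60 (−0.59 to 1.79) for non-responders, with edgeR adjusted p = 0.561 and 0.932.

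Cxcl5 was the least abundant of the 3 ligands, at 2.44, 3.82, 1.55, 1.33, and 0.571 CPM in control IgG tumors, 0.523, 0.371, 1.67, and 1.68 CPM in non-responders, and 2.06, 0.437, 0.793, 1.11, and 1.07 CPM in responders. The 2 highest values were both from mouse 14. The log2 fold change was 0.06 (SE 0.57, −1.16 to 1.28) between responders and non-responders, and −0.82 (SE 0.53, −1.95 to 0.31) for responders and −0.88 (−2.11 to 0.34) for non-responders against control IgG, with edgeR adjusted p = 0.958, 0.341, and 0.932. Without mouse 14 the responder value against control IgG was −0.06. Without mouse 33, which left non-responders 29L and 32R, it was 1.31 between responders and non-responders and −2.13 between non-responders and control IgG, and neither was called.

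The mixture of ligands was compared within each tumor on the TPM scale. Cxcl5 made up 5.43% ± 2.35 of the 3 in control IgG tumors (n = 5), 3.46% ± 1.32 in non-responders (n = 4), and 6.88% ± 4.11 in responders (n = 5). Two-sided exact permutation tests gave p = 0.175 for responders against non-responders, 0.508 against control IgG, and 0.191 for non-responders against control IgG (0.572, 0.629, and 0.572 adjusted over the 6). Cxcl1 was the leading ligand in every tumor but 33L, at 60.8% to 74.0% of the 3 in control IgG tumors, 34.5% to 68.7% in non-responders, and 46.2% to 79.8% in responders. In tumor 33L Cxcl2 made up 61.3%.

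**Figure D3:**
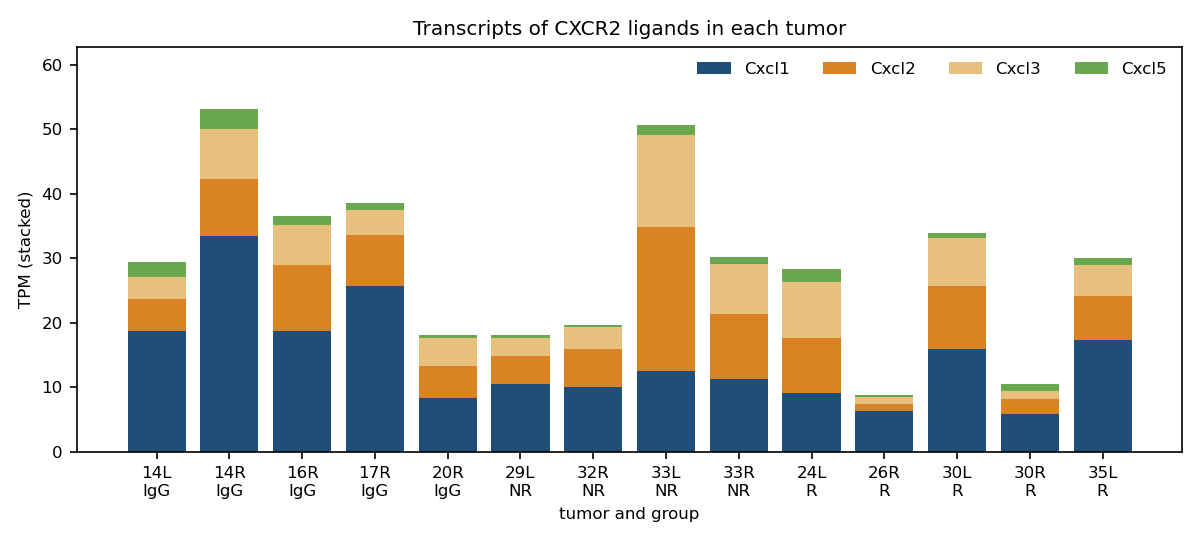
Stacked bars give the TPM of Cxcl1, Cxcl2, Cxcl3, and Cxcl5 in each tumor, with tumors and their groups on the horizontal axis. The control IgG tumor 14R and the non-responder 33L have the tallest bars, the first mostly Cxcl1 and the second mostly Cxcl2 and Cxcl3, and responders 26R and 30R have the shortest.

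**Figure D4:**
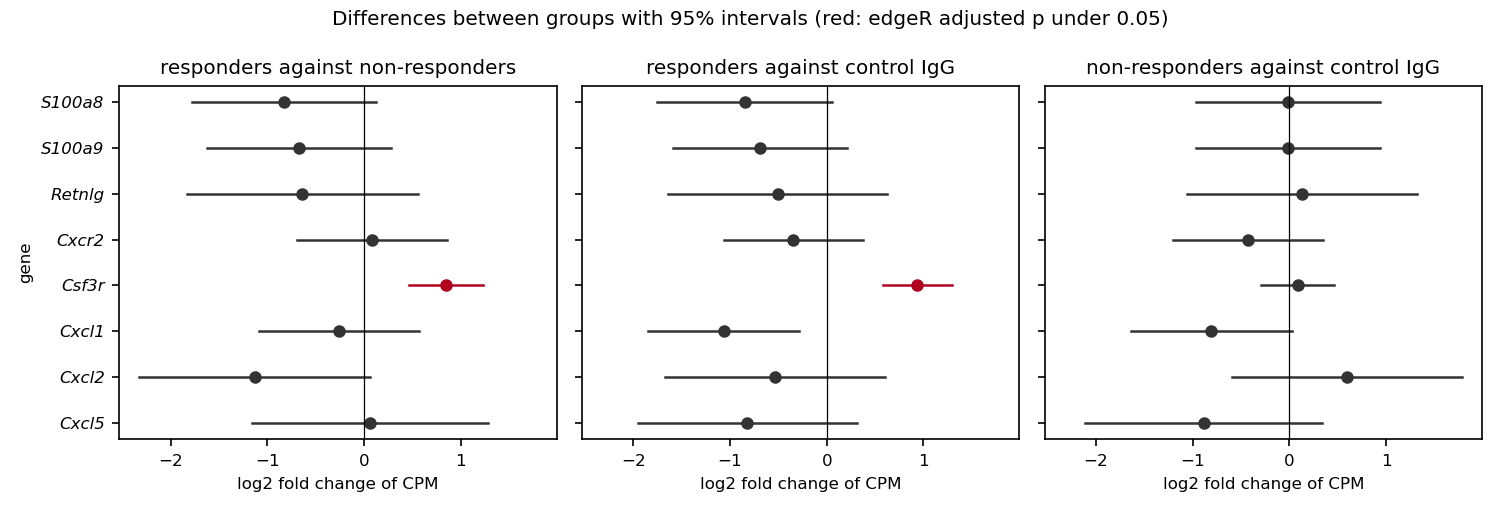
Points are log2 fold changes of CPM for the 8 tested genes in the 3 comparisons and lines are 95% intervals, with a vertical line at no difference. Red marks an edgeR adjusted p under 0.05, which holds for Csf3r in both comparisons with responders (0.85 and 0.94) and for no gene between non-responders and control IgG.

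For the 8 tested members the median log2 fold change was −0.45 between responders and non-responders and −0.61 between responders and control IgG, against 0.01 and −0.01 over all tested genes, and −0.02 between non-responders and control IgG. The comparisons share responders or controls and are not independent of each other. In that last comparison S100a8 and S100a9 were each at −0.02 on the log2 scale (adjusted p = 0.996 for S100a9 in edgeR), Retnlg had 0.13, and Cxcr2 had −0.43 (−1.20 to 0.35). The calprotectin values also leaned on mouse 33, without which they were −0.63 for S100a8 and −0.75 for S100a9, not called. The widths of these intervals allow differences of about 1 on the log2 scale. The medians hide opposite changes. Of the 8 members, 3 were higher and 5 lower in responders than in non-responders, and 1 higher and 7 lower than in control IgG. Csf3r was higher in both (0.85 and 0.94). Without mouse 33, S100a9, Retnlg, and Cxcl2 turned to 0.07, 0.53, and 0.23 between responders and non-responders, while S100a8 stayed at −0.21.

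Ordered by mean TPM over the 14 tumors, S100a9 (64.2 ± 35.0, SD, n = 14) was followed by S100a8 (37.7 ± 23.0), Cxcl1 (14.6 ± 7.79), Cxcl2 (7.72 ± 5.07), Csf3r (5.38 ± 2.47), Retnlg (3.13 ± 1.81), Cxcl5 (1.22 ± 0.804), Cxcr2 (0.701 ± 0.291), Camp (0.196 ± 0.273), and Ngp (0.155 ± 0.339). Each gene lay above the next in 14, 13, 13, 10, 11, 13, 12, 13, and 6 of the 14 tumors. The steps from Cxcl2 to Csf3r and from Camp to Ngp were thus the least steady. Csf3r lay above Cxcl2 in 3 of 5 responders (24L, 26R, and 30R) and in 29L alone of the other tumors, and the order of the means turned in responders (8.09 TPM for Csf3r and 5.74 for Cxcl2). The difference of neighboring means was larger than either SD from S100a8 to Cxcl1, from Retnlg to Cxcl5, and from Cxcr2 to Camp, and smaller than the larger SD in the other steps. The calprotectin genes were each more than 10 times as abundant as Cxcr2 in TPM, although Cxcr2 is the longer transcript (2862 bases against 513.2 for S100a9 and 486.5 for S100a8 in these files).

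Correlations between members were computed across tumors. Csf3r was left out because its groups separate. All 21 pairs of the other 7 had a positive correlation of log2 CPM (n = 14, Pearson r from 0.304 to 0.957, median 0.551), and 6 pairs by Pearson's r and 8 by Spearman's rho had a permutation p under 0.05 adjusted over the 21. The share of positive or passing pairs among all genes was not computed, so these counts have no background. In 3 mice the tumors share the host, and the permutations treated them as separate. For this reason r was also computed on 11 mouse means, without a p-value. S100a8 and S100a9 had r = 0.957 and rho = 0.789 (permutation p = 1e-05, the smallest that 100000 resamples can give, and 0.0012, adjusted 0.00021 and 0.0125). Without the 2 tumors farthest from the median r was 0.884, after subtracting group means 0.951, and over mouse means 0.971.

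Cxcr2 went with Cxcl5 (r = 0.83, rho = 0.833, permutation p = 0.0004 and 0.00037, adjusted 0.0042 and 0.00777), with r = 0.847 without the 2 farthest tumors, 0.797 within groups, and 0.865 over mouse means. S100a9 went with Cxcl2 (r = 0.797, rho = 0.78, permutation p = 0.00128 and 0.00179, adjusted 0.00896 and 0.0125), and here r was 0.726, 0.752, and 0.888. The link of S100a8 to Cxcl2 was less steady, with r = 0.657 and rho = 0.477 (permutation, adjusted p = 0.044 and 0.114), and r fell to 0.441 without the 2 farthest tumors. Cxcl1 and Cxcl2, neighbors with a shared promoter stretch, had r = 0.589 and rho = 0.534 (permutation, adjusted p = 0.0713 and 0.0839). Cxcl2 was closer to Cxcl3, with r = 0.98 and rho = 0.969, a pair chosen after its values were seen, while Cxcl1 and Cxcl3 had r = 0.56 and rho = 0.407.

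A search over the 12204 genes with sufficient level for those most like a member gave S100a9 first for S100a8, both over the 14 tumors (r = 0.957) and after subtracting group means (0.951). The next were Efna4 (0.803) and Mfsd9 (0.777), and within groups Cd24a (0.875), a surface protein of many leukocytes and epithelia. For Cxcr2 the nearest were Npr1 (0.795), Efna4 (0.760), and Itga7 (0.749), and within groups Eln (0.881), Cd248 (0.871), and Mfap4 (0.870), of which elastin and Mfap4 belong to elastic fibers. For Cxcl5 they were Itga7 (0.832), Npr1 (0.818), and Dio2 (0.801), and within groups Islr (0.894) and Mmp3 (0.881), so that Npr1 and Itga7 were near both Cxcr2 and Cxcl5. For Cxcl1 they were Ccn1 (0.882), Mapre3 (0.833), and Il11 (0.826), and within groups Sod2 (0.827) and Hspa1b (0.826). Apart from S100a9, no gene named in this search was in the neutrophil lists. The limit on level left out Ngp, and it also left out Cxcr2 and Cxcl5 as matches for each other. Over the 14 tumors their r with each other, given above, was higher than that of Npr1 with either. It was slightly below that of Itga7 with Cxcl5 (0.832). After subtracting group means the r of Cxcr2 with Cxcl5 was 0.797, below that of each within-group match named here for either gene. Neutrophil genes below the limit could not be found, so their near absence among the matches was not a test.

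The left and right tumors of 1 mouse were then compared. In mouse 14 the right tumor had 2.05 times the Cxcl1, 1.97 times the Cxcl2, 2.48 times the Retnlg, and 20.3 times the Ngp CPM of the left, while Csf3r had a ratio of 0.997. In mouse 30 the right tumor had 0.346 of the Cxcl1, 0.259 of the Cxcl2, and 0.355 of the Retnlg CPM of the left, but 1.92 times the S100a8 and 1.14 times the Csf3r. In mouse 33 the right tumor had 0.636 of the Csf3r, 0.835 of the S100a9, and 0.668 of the Cxcl2. Cxcl1, Cxcl2, and Retnlg thus differed between flanks of mice 14 and 30 in opposite directions, and Csf3r differed least of the tested members in mice 14 and 30 but most in mouse 33.

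The other 58 genes of 8 neutrophil lists gave 47 that could be tested. Of these, 6 rose and 1 fell in responders against non-responders, and 9 rose and 2 fell against control IgG, with median log2 fold changes of 0.23 and 0.27 against 0.01 and −0.01 over all genes. Over all tested genes 5.08% were called higher and 4.82% lower in the first comparison, and 7.88% and 5.30% in the second. None was called between non-responders and control IgG (4 at an unadjusted p under 0.05, and none called by DESeq2 or limma-voom). Without both tumors of mouse 33 the first count was 0 and 0, and without mouse 30 it was 2 and 0. Cybb and Fpr1 were among the genes that rose.

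Among 12 tested genes of mature surface and cytosol, 3 rose against non-responders and 4 rose and 1 fell against control IgG. The formyl peptide receptors Fpr1 (log2 fold change 1.09, SE 0.25, and 1.56, SE 0.24, edgeR adjusted p = 0.0188 and 0.00138) and Fpr2 (0.69 and 0.67, adjusted p = 0.0350 and 0.0225) rose in both. Il1r2, a decoy receptor of interleukin-1, rose against control IgG (0.79, adjusted p = 0.0402), and Trem1, an activating receptor of neutrophils and monocytes, fell there (−0.97, adjusted p = 0.00956).

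Of the 5 NADPH oxidase genes, which make the oxidative burst of neutrophils and macrophages, Cybb rose in both comparisons (0.80, SE 0.14, and 0.79, SE 0.13, edgeR adjusted p = 0.00751 and 0.00213) and Ncf1 rose against control IgG (0.61, adjusted p = 0.00265). Of 4 tested primary granule genes Ctsc, a protease that activates granule enzymes and is also made by macrophages, rose (0.56 and 0.44, adjusted p = 0.0229 and 0.0332). Ctsg, cathepsin G of neutrophils and mast cells, fell against non-responders (−2.0, SE 0.50, adjusted p = 0.0261), a call lost without tumor 33R (−1.14, adjusted p = 0.107), which held 15.3 CPM. None of 8 tested specific and gelatinase granule genes was called in any comparison. Of 4 suppressive myeloid enzymes Nos2 rose in both (1.06 and 1.14, adjusted p = 0.0406 and 0.0173), and against control IgG Ptges rose (0.27, adjusted p = 0.0146) and Ptgs2, cyclooxygenase-2, fell (−1.12, adjusted p = 0.0130). Arg1 was not called (−0.52 and 0.14).

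Several of these calls rested on single tumors. With each of the 14 tumors left out in turn, Cybb was called every time in both comparisons, and Ncf1, Trem1, Ptgs2, and Ptges every time against control IgG. Fpr1 was called in 14 of 14 fits against control IgG and in 12 against non-responders, where the adjusted p without 32R was 0.0570. Ctsc was called in 11 fits against non-responders and 8 against control IgG, Fpr2 in 7 and 10, and Nos2 in 6 and 12. Il1r2 was called in 6 fits against control IgG, and Ctsg in 11 against non-responders. The highest edgeR adjusted p of Fpr2 in both comparisons (0.0937 and 0.0697), of Nos2 and Ctsc against non-responders (0.104 and 0.0608), and of Il1r2 (0.120) came without responder 24L, and those of Ctsc and Nos2 against control IgG (0.0951 and 0.0530) came without control tumor 20R.

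None of the 2 tested genes of the list of other Cxcr2 ligands, the 10 tested upstream signals, or the 2 tested genes of neutrophil retention (Cxcl12 and Cxcr4) was called in any comparison. Cxcl3 had log2 fold changes of −0.84 and −0.28 in responders against non-responders and control IgG, and Il1b, an inducer of Cxcr2 ligands, had −0.03 and −0.33. Cxcl12, the ligand that holds neutrophils in the marrow, had 0.70 (edgeR adjusted p = 0.149) and 0.88 (0.0544), and its receptor Cxcr4 had 0.02 and −0.02. Csf3, the ligand of Csf3r, had 0 to 32 counts and was too low to test, and Il17a was at 0 in all 14 tumors. The tumor with the most Csf3, 14R, was also the highest in Ngp and Cxcl1.

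**Figure D5:**
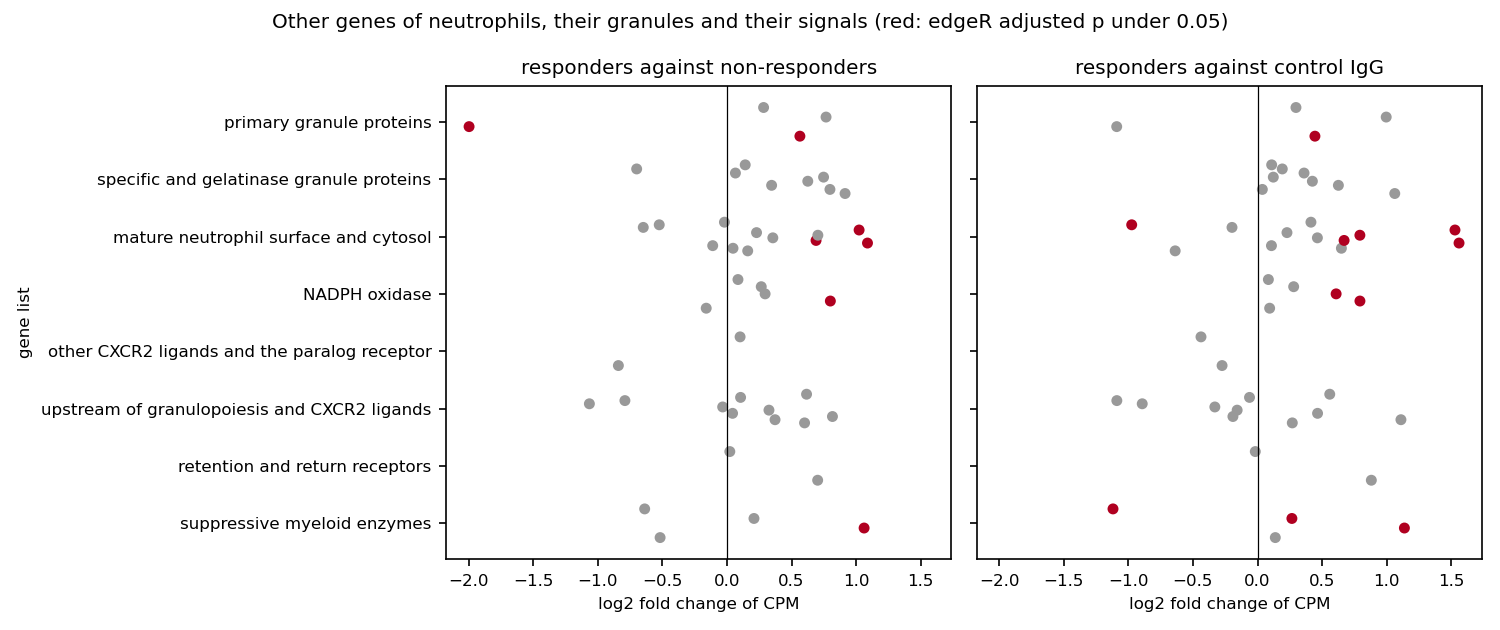
Each point is a gene of the list named on the vertical axis, placed at its log2 fold change of CPM, for responders against non-responders on the left and against control IgG on the right, with red for an edgeR adjusted p under 0.05. The red points at the right of the left panel include Fpr1 (1.09) and Nos2 (1.06), and the red point at the far left is Ctsg (−2.0).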

How the data were processed

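RNA of 14 CT26 tumors was sequenced in bulk, and groups were taken from the sample labels. Per the submitters' processing notes, STAR, RSEM, and the mm10 build were used. STAR 2.5 is stated for the cell lines, to which the methods refer for the tumors, and the RSEM version is not given in the sources used here. The authors deposited expected counts, which are estimated fragments per gene from RSEM with no normalization. All 140 values of the 10 genes lay within 0.005 of a whole number, so no reads of these genes were visibly divided among genes. The authors also deposited TPM values, scaled to gene length and a fixed total, which were used for levels between genes. The FPKM values that the authors deposited were not used.

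After rounding, counts were compared between groups by edgeR 4.0.16 under R 4.3.3 (TMM, filterByExpr, quasi-likelihood test), with all 14 tumors in 1 fit of 3 groups and no covariate. P-values were adjusted by Benjamini-Hochberg over all 16287 genes tested, with a threshold of 0.05. CPM values use TMM-scaled library sizes. Alternatives used DESeq2 1.42.0, limma 3.58.1 (voom, also with a random effect of mouse, and log2 of TPM + 1 or + 0.1), other scaling and filters, a gene-length correction, counts summed per mouse, and fits without each tumor. Fits without both tumors of a mouse, and the 2 ratios with Csf3r, were added after seeing the data. Correlations used log2 CPM with a prior count of 2, and permutation tests used SciPy 1.17.1. The tests were also run on simulated counts with independent tumors and the same spread parameter for every gene. That setting has no shared mouse, so it does not check the tests for tumors of 1 host or for genes that vary more. Intervals and floors cover counting error or the spread of these tumors only. Coordinates are those of mm10, and promoter windows are those of RefSeq on GRCm38.p6.

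Named are the 10 genes, and of the lists of neutrophil genes and of markers those with an adjusted p under 0.05 in some comparison, plus Ly6g, Cxcl3, Csf3, Il1b, Cxcl12, Cxcr4, and Arg1. Not every gene that the rule names is reported here, though the list counts include it. Other genes are named for likeness to a member or as defining markers. The members and lists were chosen with earlier results of these data known.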

Additional observations from a re-analysis of the deposited data

Results flagged for a closer look

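In 36 sets of values, each a gene's CPM or a ratio within 1 group of tumors, a tumor far from the rest was looked for. Such a tumor was found in 6 sets. The rule flags about 1 in 20 sets by chance only where values are independent and normally spread. Here some values were near the floor and some sets moved together, so the 6 cannot be set against that rate. In control IgG tumors 16R stood above the other 4 for S100a8 (18.3 CPM, against 4.48 to 7.23) and S100a9 (32.0 CPM, against 9.55 to 13.1). Since these genes moved together, they are close to 1 observation, and the same tumor had the highest blood marker sum (4559 TPM). Non-responder 32R had a blood marker sum of 4414 TPM with 5.21 CPM of S100a8 and 9.96 CPM of S100a9. Among responders 26R stood below the other 4 for S100a9 (2.71 CPM). Tumor 14R stood above the other control IgG tumors for Camp (0.278 CPM) and Ngp (1.15 CPM), both at or near the floor in the other control IgG tumors, and it also held the most Csf3 and Mpo counts (32 and 16). In non-responder 29L the ratio of S100a8 to S100a9 was 0.737, against 0.576 to 0.592 in the other 3. No difference between groups' effects and no signal outside the expected counts and TPM was examined for this purpose.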

How the results depend on the processing

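Of 758 recomputed single values, 719 kept their direction and their side of the threshold, 2 lost and 4 gained a call, and 33 changed sign, all from differences that were not called. Genes called between responders and non-responders (1612) numbered 2634 with DESeq2, 2973 with limma-voom and a mouse effect, 689 with only the 2 groups fitted, 197 without mouse 30, 59 without mouse 33, and 569 to 1978 with 1 tumor left out. The members called were 0 without mouse 30 or mouse 33. Between responders and control IgG (2147) they numbered 922 without mouse 30, 3255 without mouse 33, and 1190 to 3385 with 1 tumor left out, and members called were 2 with DESeq2 or limma-voom and a mouse effect and 1 to 2 with 1 tumor left out. Between non-responders and control IgG (0) they numbered 18 with DESeq2, 3 with no filter, and 0 to 5 with 1 tumor left out. The cause of these shifts was not tested, beyond the fewer tumors fitted. Without mouse 33 the log2 fold change between responders and non-responders became 0.0657 for S100a9, 0.53 for Retnlg, and 0.23 for Cxcl2, and between non-responders and control IgG −1.04 for Retnlg and −0.76 for Cxcl2. In that last comparison S100a8 became 0.0791 (voom), 0.21 (voom with mouse), 0.0305 (TPM + 1), and 0.0329 (TPM + 0.1), S100a9 0.13 (voom with mouse), Retnlg −0.0124 (voom), −0.0322 (summed per mouse), and −0.0203 (TPM + 0.1), and Csf3r −0.0706 and −0.10 (TPM + 1 and + 0.1). With 1 tumor left out, Cxcr2 ran from −0.22 to 0.43 and Cxcl5 from −0.29 to 0.39 between responders and non-responders, and S100a8 from −0.28 to 0.50, S100a9 from −0.30 to 0.44, Retnlg from −0.26 to 0.50, and Csf3r from −0.0428 to 0.17 between non-responders and control IgG. The S100a8 to S100a9 ratio difference ran from −0.0663 to 0.0104 for responders and from −0.00272 to 0.0509 for non-responders against control IgG. On log2(TPM + 1) the median gene shifted by 0.17 between responders and non-responders, and Csf3r relative to it was 0.77. In tumor 33R genes of 500 bases were 0.49 higher on the log2 scale than the trend of all tumors. At that length responders ran from −0.189 to −0.046, non-responders from −0.019 to 0.49, and control IgG tumors from −0.053 to 0.124. This touches the short genes S100a8, S100a9, and Retnlg in all comparisons. A gene-length correction was among the alternatives, and the part of this trend in the responder values was not otherwise tested. No paired analysis was possible because the groups share no replicate number.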
